A study of Mus musculus with 12 samples.

Results

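Kidney RNA from mice with contrast-induced acute kidney injury was examined for 10 genes of the p53 pathway: the gene of p53 itself (Trp53), its inhibitor Mdm2, and the target genes Cdkn1a, Btg2, Plk3, Plk2, Ccng1, Trp53inp1, Sesn1 and Phlda3. The genes were chosen by name as p53 targets and cell cycle arrest genes, with earlier results of these data known. All 10 were found among the 35536 genes listed in the tables. The series holds 12 bulk RNA-seq libraries in 4 groups of 3, and asks what part PAD4 (a histone-citrullinating enzyme needed for neutrophil extracellular traps) and the cytokine IL-33 have in tubular injury and ferroptosis. The PAD4 set holds 3 wild-type C57BL/6 mice and 3 mice with a knockout of Padi4, and the IL-33 set holds another 3 wild-type C57BL/6 mice and 3 mice labelled as Il33 knockouts. All 12 were males aged 8 weeks that had lost 1 kidney by surgery 3 weeks earlier, had gone without water for 24 h, had received the loop diuretic furosemide 20 min before iodixanol (an iodinated contrast agent), and gave the remaining kidney 24 h after it. No uninjured kidney was analysed here, so the levels below describe injured kidneys of different genotypes.

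The transcription factor p53 is held at a low level by MDM2, a ubiquitin ligase that marks it for destruction and whose gene p53 itself switches on. DNA damage, oxidative stress and other injuries free p53, which then raises genes that halt the cell cycle, repair DNA or kill the cell. Its best known target, Cdkn1a, encodes p21, an inhibitor of cyclin-dependent kinases that is strongly induced in injured tubules, also by signals that do not pass through p53. Since p53 is controlled mainly through the stability of its protein, the level of Trp53 mRNA is a poor measure of its activity.

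The sequences before the start sites of the genes that the results turn on are shown because p53 acts through a DNA element made of 2 half-sites of 10 bases each. The RefSeq table of promoters (GRCm38.p6) held 9 of the 10 genes with 11 start sites, and the 250 bases before each start were searched on both strands. Trp53inp1 had no entry there and was not searched. A half-site was RRRCWWGYYY (R for A or G, W for A or T, Y for C or T), with no mismatch allowed. Capitals mark every match to a motif searched, so near-matches stay in small letters. Cdkn1a has a distal start 2790 bases before its proximal one, and the window before the distal start (chr17:29090729-29090978, plus strand) held a p53 full site, that is 2 half-sites at most 13 bases apart:
Cdkn1a: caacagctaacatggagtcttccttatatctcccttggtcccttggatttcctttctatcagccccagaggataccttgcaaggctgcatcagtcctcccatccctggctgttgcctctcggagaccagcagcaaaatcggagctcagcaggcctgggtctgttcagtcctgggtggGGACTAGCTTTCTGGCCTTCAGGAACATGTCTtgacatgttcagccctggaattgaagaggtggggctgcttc
Btg2 (chr1:134079156-134079405, minus strand) had the letters TGACGTCA, the element bound by CREB and related factors, and no p53 half-site:
Btg2: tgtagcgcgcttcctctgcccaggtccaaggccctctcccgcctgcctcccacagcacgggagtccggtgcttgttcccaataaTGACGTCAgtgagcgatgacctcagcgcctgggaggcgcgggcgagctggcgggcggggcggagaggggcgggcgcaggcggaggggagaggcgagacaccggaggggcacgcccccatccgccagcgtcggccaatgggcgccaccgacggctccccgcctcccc
Plk3 (chr4:117133964-117134213, minus strand) had no match to any motif searched:
Plk3: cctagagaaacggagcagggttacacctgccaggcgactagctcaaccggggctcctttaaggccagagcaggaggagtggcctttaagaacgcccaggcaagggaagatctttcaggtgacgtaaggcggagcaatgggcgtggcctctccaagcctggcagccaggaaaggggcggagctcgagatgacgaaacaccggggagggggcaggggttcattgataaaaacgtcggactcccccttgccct
Ccng1 (chr11:40755287-40755536, minus strand) had a single p53 half-site:
Ccng1: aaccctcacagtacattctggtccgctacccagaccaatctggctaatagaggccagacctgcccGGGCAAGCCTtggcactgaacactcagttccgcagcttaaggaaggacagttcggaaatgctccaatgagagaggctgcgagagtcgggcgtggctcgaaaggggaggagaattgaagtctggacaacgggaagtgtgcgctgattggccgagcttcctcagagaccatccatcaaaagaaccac

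Of all 32851 promoter windows of this length in the table, 7.13% held a p53 half-site and 0.0639% a full site. Among the 11 windows of the p53 pathway genes, 5 held a half-site (those of Cdkn1a at the distal start, Mdm2, Ccng1 and Trp53, and 1 of the Sesn1 starts), and the full site was in Cdkn1a. TGACGTCA was in the windows of Btg2 and Plk2 and in 1.55% of all windows. The other motifs searched were TGANTCA (in 6.75% of all windows), TATAAA (12.4%) and the CArG box (1.47%). Of these, TATAAA was found before Trp53 and the remaining pair in none of the 11 windows. In the Cdkn1a window, the letters tgacatgttc directly after the full site match a half-site except at the first letter, so they were not counted. A match describes the letters of the window and is not a measured binding site.

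Values are FPKM (fragments scaled by transcript length and library total), which allows levels to be compared between genes of a library. The tables of the PAD4 set and the IL-33 set were normalized separately, with FPKM sums of 700601 to 812981 and 385124 to 420279 per library, so levels are compared only within a set. Genes encoded in mitochondria took 52.0% to 60.0% of the sum in the first and 24.1% to 29.2% in the second. The sequencing depth is unknown. Padi4 was lower in the PAD4 knockout (0.217, 0.497 and 0.187 FPKM) than in wild type (0.704, 1.06 and 1.67 FPKM), with limma adjusted p = 0.0147. The call was lost without wild-type library 3 (limma adjusted p = 0.0752) or PAD4 knockout library 3 (0.059). It was also lost without the variance trend (0.0579), without the expression filter (0.162) and without both (0.188). Il33 did not pass in its own set (1.71, 1.13 and 3.64 FPKM among wild-type kidneys, against 1.14, 0.616 and 1.02 FPKM in the libraries labelled IL-33 knockout, limma adjusted p = 0.099, and 0.035 without wild-type library 2), so these libraries are called labelled IL-33 knockout throughout. It was lower in the PAD4 knockout (0.889, 1.58 and 1.28 FPKM) than in the wild type of that set (3.57, 5.29 and 3.28 FPKM), without overlap (-1.15 ± 0.23 (SE), limma adjusted p = 0.00208).

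In both comparisons the same 4 genes fell: Cdkn1a, Btg2, Plk3 and Trp53inp1. In the PAD4 knockout they were at 24.7% to 41.0% of the wild-type mean, and in the labelled IL-33 knockout at 3.80% to 41.2%. Mdm2 also fell in the labelled IL-33 knockout, to 65.6% of wild type, and Ccng1 rose there 1.56-fold. Trp53 itself, Plk2, Sesn1 and Phlda3 did not pass the test in either comparison. Thus 4 of the 10 were called in the PAD4 knockout, where 17.7% of all 13986 genes tested were called, and 6 of the 10 in the labelled IL-33 knockout, where 39.1% of 14513 were. Of the 13010 genes tested in both sets, 2.1% fell in both. The comparisons share no libraries. Since the 10 genes were chosen with earlier results known, the shares of all genes are a background and not a test.

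**Figure D1:**
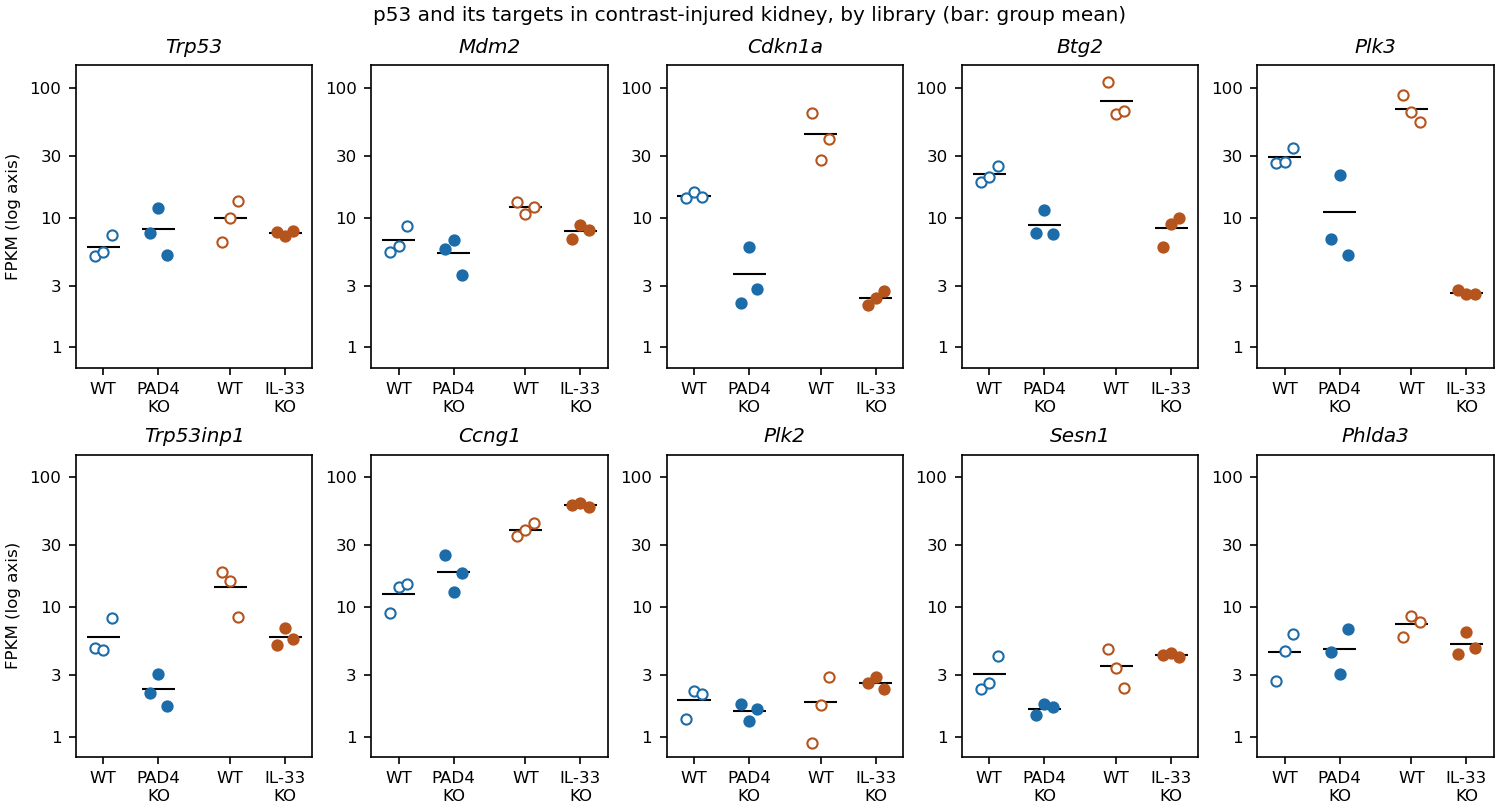
FPKM of each of the 10 genes (log axis) in the 12 libraries, with open circles for wild type, filled circles for knockouts, and a bar at the group mean. Cdkn1a, Btg2 and Plk3 of the labelled IL-33 knockout lie far below their wild type, while Trp53 overlaps between the groups in both sets.

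Markers of other tissues moved with the 4 falls in the PAD4 set. As a background to the counts below, 8.89% of all genes tested rose and 8.79% fell in the PAD4 set. In the IL-33 set 22.2% rose and 16.8% fell. Of 14 markers of colon epithelium, 14 fell, and their summed FPKM was 482 to 701 in wild type and 123 to 257 in the knockout. Of 9 lung markers 8 fell (sums of 297 to 848, and 42.9 to 211), and of 10 smooth muscle markers 9 fell (433 to 922, and 83.2 to 301). Neutrophil markers fell in 4 of 8 tested (52.1 to 174, and 9.81 to 62.5) and macrophage markers in 3 of 7 (80.6 to 155, and 34.5 to 73.4). None of these markers was at 0 in all 6 libraries. Proximal tubule markers rose in 10 of 11 tested (55.4 to 86.3, and 160 to 391), with the lowest knockout sum in library 2. Thick ascending limb markers rose in 2 of 6 (54.1 to 170, and 93.1 to 567, overlapping), and those of the distal tubule and collecting duct rose in 3 of 9 and fell in 1. Proximal tubule markers of the IL-33 set rose in 10 of 12 (520 to 619, and 1875 to 2631), those of the thick ascending limb in 5 of 6 (1488 to 2169, and 2727 to 3647), and those of the distal tubule and collecting duct in 4 of 10. The share called in this last list, 40%, is near the 39.1% of all genes called in that set in either direction. Macrophage markers rose there in 7 of 8 and fell in 1 (22.3 to 40.7, and 80.2 to 86.1). Neutrophil markers passed in 0 of 4 there (sums of 2.97 to 7.61, and 5.03 to 7.54) with limma, with 0 at an unadjusted p under 0.05 as well, and smooth muscle markers rose in 1 of 6. Colon markers of that set summed to 97.4 to 369 FPKM in wild type and 6.08 to 8.27 FPKM in the labelled knockout, and 2 of 4 tested fell. They were Krt20 (349, 56.1 and 227 FPKM, against 0.366, 0.359 and 0.239 FPKM) and Lgals4, both of which kidney can also express. Of the others, Car1, Slc26a3 and Muc2 were at 0 to 0.134 FPKM in every library and Tff3 at 0 in all 6. Lung markers summed to 1.43 to 4.15 FPKM in its wild type and 0.427 to 0.749 in the labelled knockout. The part of these cell types in the changes of Cdkn1a, Btg2, Plk3 and Trp53inp1 was not tested, and in bulk tissue fewer cells of a type and less RNA per cell cannot be told apart. The source of the colon and lung marker RNA in the PAD4 set was not tested either.

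Cdkn1a (ENSMUSG00000023067), the gene of the cell cycle inhibitor p21, was at 14.2, 15.8 and 14.5 FPKM in wild-type kidneys of the PAD4 set, against 2.22, 5.97 and 2.81 FPKM in PAD4 knockout kidneys. All knockout libraries lay below all wild-type libraries, and the second knockout library was the highest of the 3. The change on the log2(FPKM + 1) scale, taken as knockout minus wild type, was -1.84 ± 0.29 (SE, n = 3 per group, limma adjusted p = 0.000434). In the IL-33 set the gene was at 63.9, 27.9 and 40.4 FPKM among wild-type kidneys, against 2.11, 2.41 and 2.72 FPKM in the labelled IL-33 knockout. The lowest wild-type value was thus far above the highest of the other group, and the change was -3.65 ± 0.26 (SE, limma adjusted p = 8.86e-05). The mean was 18.3-fold higher in wild type there, against 4.05-fold in the PAD4 set.

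Plk3 (ENSMUSG00000028680), a stress-responsive kinase of the polo-like family, had the largest fall of the 10 in the labelled IL-33 knockout. Its wild-type libraries were at 88.2, 65.4 and 55.0 FPKM and those of the labelled knockout at 2.77, 2.59 and 2.57 FPKM, a change of -4.25 ± 0.16 (SE, limma adjusted p = 9.63e-06). Ordered from the lowest change, it ranked 10 of the 14513 genes tested in that set, with Cdkn1a at 20 and Btg2 at 41. In the PAD4 set Plk3 was at 26.4, 26.9 and 34.5 FPKM among wild-type kidneys, against 6.80, 21.5 and 5.16 FPKM in the knockout (-1.55 ± 0.39 (SE), limma adjusted p = 0.00913). The groups did not overlap, but the second knockout library came close to wild type, and leaving out wild-type library 1 (adjusted p = 0.0835) or 3 (0.0774) ended the call. Plk3 overlaps Tctex1d4 on the other strand, Cdkn1a overlaps the antisense transcript AC167363.2, and Sesn1 overlaps 9930024M15Rik on its own strand, so their reads are uncertain to that extent. The libraries were strand-specific, but no source used here says whether counting used the strand.

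Btg2 (ENSMUSG00000020423), an antiproliferative gene that is also induced early after many stimuli, had 19.0, 20.7 and 25.2 FPKM among wild-type kidneys of the PAD4 set. The knockout libraries were at 7.68, 11.5 and 7.43 FPKM, again with the second highest, and the change was -1.21 ± 0.29 (SE, limma adjusted p = 0.00687). Its values in the IL-33 set were 111, 62.6 and 66.3 FPKM among wild-type kidneys, against 5.97, 8.97 and 9.97 FPKM in the labelled knockout (-3.10 ± 0.25 (SE), limma adjusted p = 0.000138). It had the highest mean of the 10 genes in that wild type, where its values overlapped those of Plk3.

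Trp53inp1 (ENSMUSG00000028211), which encodes a stress protein that promotes autophagy and p53 activity, was at 4.79, 4.68 and 8.18 FPKM among wild-type kidneys of the PAD4 set, against 2.18, 3.06 and 1.73 FPKM in the knockout. The change was -1.03 ± 0.26 (SE, limma adjusted p = 0.00938), and the call was lost without PAD4 knockout library 3 (adjusted p = 0.0515) or wild-type library 3 (0.0597). The IL-33 set had it at 18.5, 15.9 and 8.31 FPKM among wild-type kidneys, against 5.10, 6.90 and 5.63 FPKM in the labelled knockout (-1.09 ± 0.26 (SE), limma adjusted p = 0.0145). The third wild-type library lay closest to the labelled knockout, and the call was lost without labelled IL-33 knockout library 1 (adjusted p = 0.052).

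Mdm2 (ENSMUSG00000020184), the feedback inhibitor of p53, moved less. In the IL-33 set it was at 13.3, 10.7 and 12.1 FPKM among wild-type kidneys, against 6.87, 8.74 and 8.11 FPKM in the labelled knockout, without overlap (-0.55 ± 0.12 (SE), limma adjusted p = 0.0106). In the PAD4 set the groups overlapped, with 5.48, 6.06 and 8.68 FPKM among wild-type kidneys, against 5.73, 6.70 and 3.65 FPKM in the knockout (-0.29 ± 0.27 (SE), limma adjusted p = 0.514). Within libraries of the IL-33 set, Cdkn1a stood at 2.61 to 4.80 times the FPKM of Mdm2 in wild type and at 0.276 to 0.335 times in the labelled knockout. That ratio in the PAD4 set was 1.67 to 2.60 in wild type and 0.387 to 0.892 in the knockout.

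Ccng1 (ENSMUSG00000020326), which encodes cyclin G1, a p53 target that works with MDM2, went the other way. In the IL-33 set it rose from 35.0, 39.2 and 44.1 FPKM to 61.0, 63.7 and 59.5 FPKM (0.63 ± 0.10 (SE), limma adjusted p = 0.00256), with all labelled knockout libraries above all wild-type ones. In the PAD4 set it was at 9.01, 14.2 and 14.9 FPKM among wild-type kidneys, against 25.1, 12.99 and 18.2 FPKM in the knockout, where the second library lay within the wild-type range (0.51 ± 0.31 (SE), limma adjusted p = 0.289). The ratio of Cdkn1a to Ccng1, a pair of p53 targets, was 0.712 to 1.83 in the wild type of the IL-33 set and 0.0345 to 0.0457 in the labelled knockout. It was 0.972 to 1.58 and 0.0883 to 0.46 in the PAD4 set. Ccng1 had the highest mean FPKM of the 10 genes in both knockouts, clear of the next gene in the labelled IL-33 knockout and overlapping Plk3 in the PAD4 knockout. In both wild types its mean lay below those of Plk3, Btg2 and Cdkn1a, with values that overlapped those of Cdkn1a. Cdkn1a, in turn, had the lowest mean FPKM of the 10 in the labelled IL-33 knockout, where it overlapped Plk2 and Plk3.

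Trp53 (ENSMUSG00000059552) was at 5.10, 5.47 and 7.36 FPKM among wild-type kidneys of the PAD4 set, against 7.70, 11.9 and 5.16 FPKM in the knockout (0.35 ± 0.29 (SE), limma adjusted p = 0.45). Its levels in the IL-33 set were 6.51, 9.96 and 13.3 FPKM among wild-type kidneys, against 7.74, 7.20 and 7.90 FPKM in the labelled knockout (-0.30 ± 0.22 (SE), limma adjusted p = 0.309). The groups overlapped in both sets. The first wild-type library of that set had the lowest Trp53 of the 6 and, at the same time, the highest Cdkn1a, Btg2, Plk3, Trp53inp1 and Mdm2. Without that library Trp53 passed as lower (-0.54 ± 0.13 (SE), limma adjusted p = 0.0221), as did Phlda3 (-0.57, adjusted p = 0.0353), and Sesn1 passed as higher (0.45, adjusted p = 0.0438).

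The remaining 3 genes were not called in either comparison. Sesn1 (ENSMUSG00000038332), a stress protein that restrains mTORC1, was at 2.32, 2.60 and 4.22 FPKM among wild-type kidneys of the PAD4 set, against 1.48, 1.78 and 1.68 FPKM in the knockout. These groups did not overlap, but the change missed the threshold (-0.58 ± 0.23 (SE), limma adjusted p = 0.0813, and 0.0295 with median-of-ratios scaling). In the IL-33 set it was at 4.73, 3.39 and 2.36 FPKM and at 4.23, 4.43 and 4.12 FPKM, with the labelled knockout inside the wild-type range (0.26 ± 0.19 (SE), limma adjusted p = 0.305). Plk2 (ENSMUSG00000021701), a polo-like kinase of the stress response, lay between 0.899 and 2.87 FPKM in all 12 libraries, with limma adjusted p = 0.657 in the PAD4 set and 0.224 in the IL-33 set. In the latter it passed as higher without wild-type library 3 (0.65, adjusted p = 0.0311). Phlda3 (ENSMUSG00000041801), which encodes an inhibitor of AKT, lay between 2.68 and 8.56 FPKM, with overlapping groups in both sets (limma adjusted p = 0.901 and 0.0807, the latter 0.0372 with median-of-ratios scaling).

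**Figure D2:**
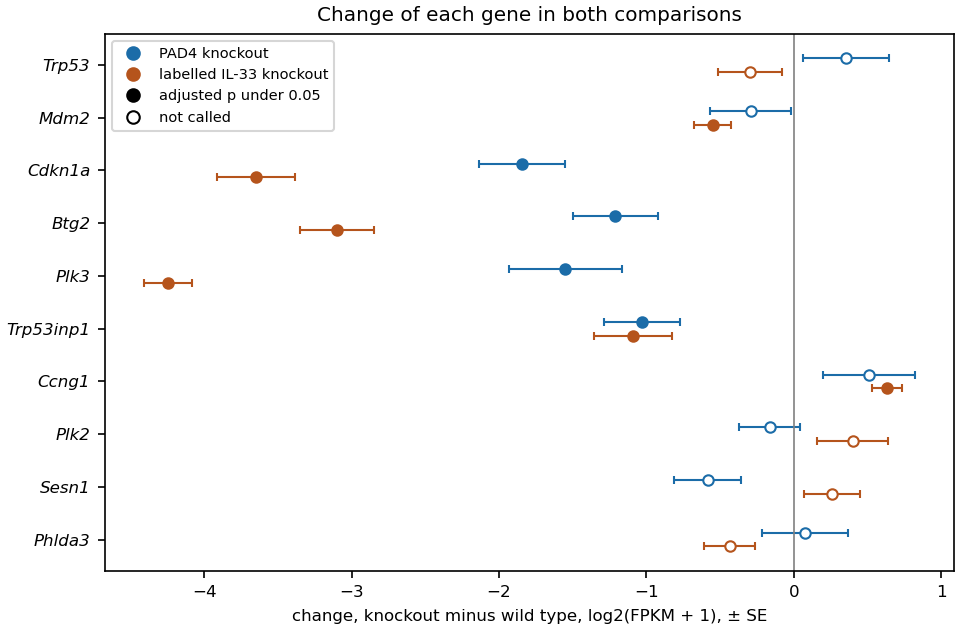
Change of each gene, as log2(FPKM + 1) of knockout minus that of wild type, with its SE, for the PAD4 knockout (blue) and the labelled IL-33 knockout (orange), n = 3 per group. Filled points passed the limma threshold: 4 of 10 in the first comparison and 6 of 10 in the second.

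By direction, 0 of the 10 genes rose and 4 fell in the PAD4 knockout, where 8.89% of all genes rose and 8.79% fell. In the labelled IL-33 knockout 1 rose and 5 fell, where 22.2% of all genes rose and 16.8% fell. The median change of the 10 was -0.44 and -0.49, beside 0.02 and 0.04 over all genes tested. The groups did not overlap for 5 of the 10 in the PAD4 set, all lower in the knockout, against 33% of all genes (17.2% higher, 15.8% lower). They did not overlap for 6 of the 10 in the IL-33 set, 1 higher and 5 lower, against 54.6% of all genes (30.2% higher, 24.3% lower). With 3 libraries against 3 an exact two-sided permutation test cannot go below p = 0.1, and it gave that value for each gene without overlap. The PAD4 calls depend on the filter: with every gene tested that was above 0 in 1 library or more, limma called 0 of 32199 genes there (6053 at an unadjusted p under 0.05). Adjusted p was then 0.0852 for Cdkn1a, 0.0917 for Btg2, 0.132 for Trp53inp1 and 0.184 for Plk3. The same setting in the IL-33 set lost the call of Trp53inp1 (adjusted p = 0.0558).

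The falls of Cdkn1a, Btg2 and Plk3 were larger in the labelled IL-33 knockout than in the PAD4 knockout. The difference between the changes, tested as a contrast of 4 group means over 12 libraries, was -1.80 ± 0.41 (SE, limma adjusted p = 0.0103) for Cdkn1a, -1.89 ± 0.36 (SE, limma adjusted p = 0.00359) for Btg2 and -2.70 ± 0.50 (SE, limma adjusted p = 0.00329) for Plk3. These 3 of the 10 genes passed, all with a negative difference, beside 12.4% of the 13010 genes tested (6.18% positive, 6.23% negative). For Trp53inp1 the difference was -0.06 ± 0.38 (SE, limma adjusted p = 0.941). For Sesn1 it was 0.84 ± 0.28 (SE, limma adjusted p = 0.0659), and it passed without wild-type library 1 of the IL-33 set (adjusted p = 0.0242) or of the PAD4 set (0.0439). The set and the knockout cannot be told apart in this contrast, since each knockout is found only in its own set.

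The paralogs Plk3 and Plk2 differed in how they moved. In the wild type of the IL-33 set Plk3 was at 98.2, 37.4 and 19.2 times the FPKM of Plk2 in the same library, and in the labelled knockout at 1.07, 0.902 and 1.10 times. The ratio in the PAD4 set was 19.3, 12.0 and 16.2 among wild-type kidneys, against 3.80, 16.2 and 3.16 in the knockout, with the second knockout library inside the wild-type range. Cdkn1a and Cdkn1b, the genes of the related inhibitors p21 and p27, showed a like shift. Their ratio was 10.2, 4.39 and 5.97 among wild-type kidneys of the IL-33 set, against 0.252, 0.283 and 0.349 in the labelled knockout. It was 4.62, 4.76 and 2.67 among wild-type kidneys of the PAD4 set, against 0.657, 2.12 and 1.01 in the knockout. A ratio within a library does not depend on how libraries are scaled, and shows unequal change rather than which gene moved. The ratios given here were chosen after their values were seen, and an exact two-sided permutation test on their log2 values gave the smallest p that 3 against 3 allow (0.1) for those without overlap.

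**Figure D3:**
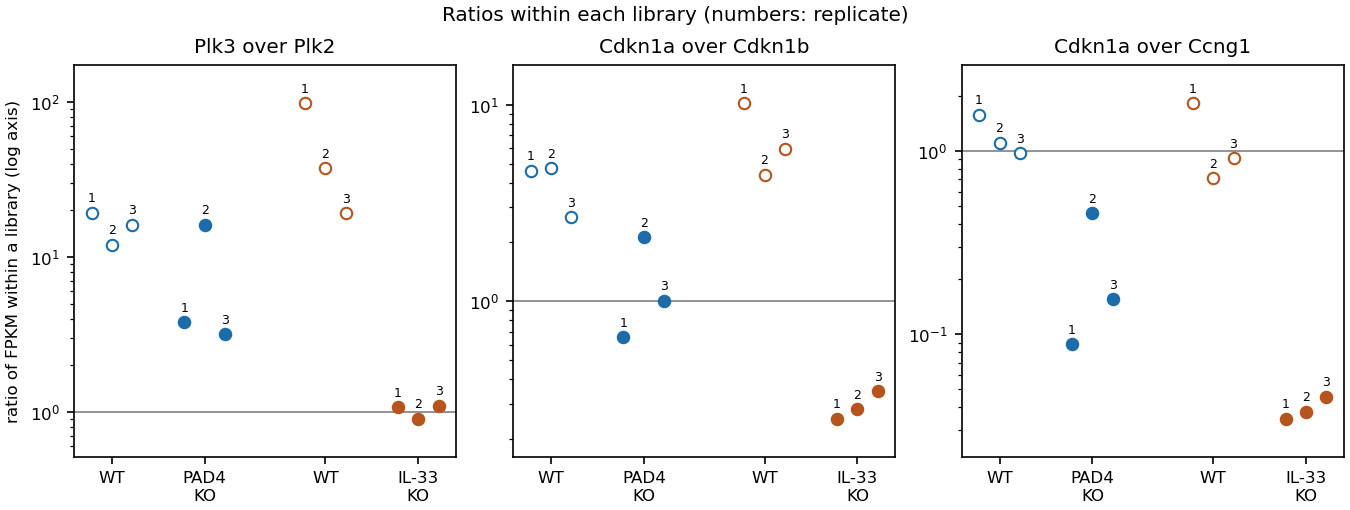
Ratio of FPKM within each library (log axis) for Plk3 over Plk2, Cdkn1a over Cdkn1b and Cdkn1a over Ccng1, with replicate numbers beside the points and a line at a ratio of 1. In the labelled IL-33 knockout Plk3 over Plk2 lies at 0.902 to 1.10, and the second PAD4 knockout library lies nearest to wild type in each panel.

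Within a group, libraries took a like order for part of these genes only. The second PAD4 knockout library had the highest Cdkn1a, Btg2, Plk3, Trp53inp1, Mdm2, Trp53 and Sesn1 of its group. It had the lowest Ccng1, Plk2 (1.33 FPKM) and Phlda3 (3.03 FPKM). In the labelled IL-33 knockout, library 1 had the lowest Cdkn1a (2.11 FPKM) but the highest Plk3 (2.77 FPKM) of its group. Leaving out 1 library of the PAD4 set at a time gave changes of -2.12 to -1.18 for Plk3 and -2.18 to -1.62 for Cdkn1a. The most negative were those without the second knockout library, which follows from its being the highest of its group. The genes whose values over the 12 libraries were closest to those of Cdkn1a, by the root mean square difference of log2(FPKM + 1) centred in each set, were Sox9 (0.23), Maff (0.26) and Dusp5 (0.32), among 9688 genes compared. Sox9 encodes a transcription factor of regenerating tubules, Maff a small MAF factor induced by stress, and Dusp5 a phosphatase of ERK. Btg2 ranked 4 (0.36) and Plk3 7 (0.38), while Mdm2 ranked 1005 and Ccng1 8438. This measure is not scaled and takes in the knockout changes given above. Genes that changed less than Cdkn1a or the other way therefore rank far from it, and the ranks are not separate evidence. Closest to Mdm2 were Mex3c (0.088), Ipo5 (0.092) and Rusc2 (0.093).

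**Figure D4:**
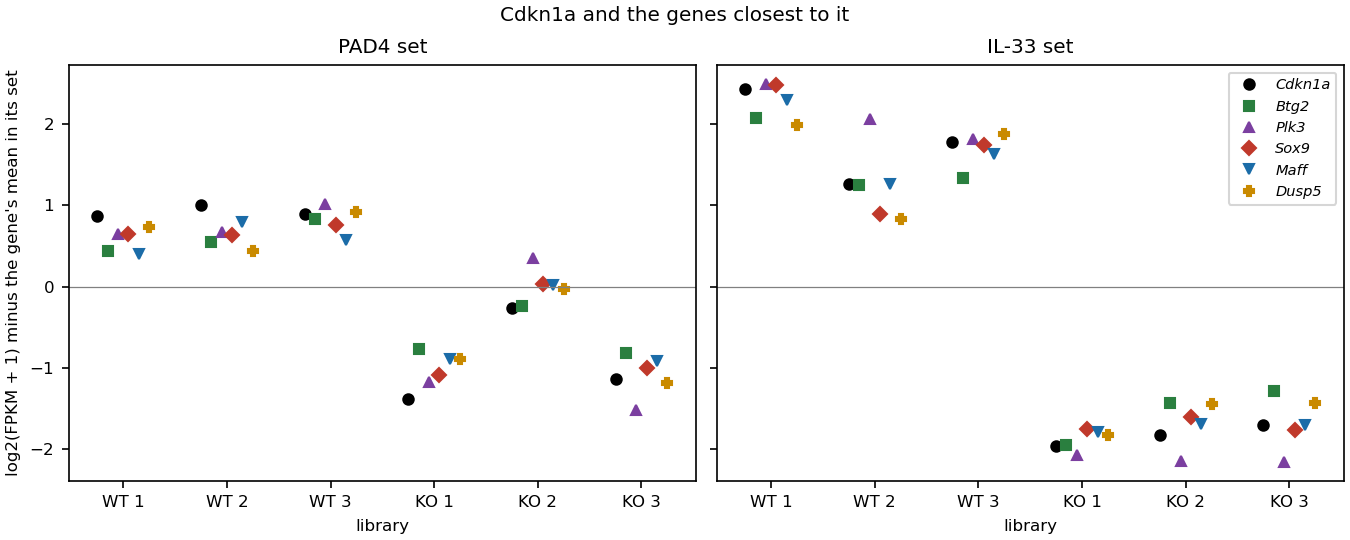
log2(FPKM + 1) of Cdkn1a, Btg2, Plk3 and the 3 genes closest to Cdkn1a, each minus its mean in the set, in every library of the PAD4 set (left) and the IL-33 set (right). In the PAD4 set the second knockout library lies between the other knockout libraries and the wild type for all 6 genes, and in the IL-33 set all 6 are higher in each wild-type library than in each labelled knockout library.

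Of other p53 targets that act in cell death, 1 of 11 tested rose and 0 fell in the PAD4 knockout, with a median change of -0.11. This share is near that of all genes, of which 8.89% rose and 8.79% fell. The gene was Bax, a pore-forming killer protein of mitochondria, at 12.1 ± 2.70 FPKM (SD, n = 3) among wild-type kidneys, against 53.8 ± 12.98 FPKM (SD, n = 3) in the knockout, without overlap (2.05 ± 0.31 (SE), limma adjusted p = 0.000319). In the labelled IL-33 knockout 0 of 11 rose and 3 fell, beside 22.2% and 16.8% of all genes, with a median of -0.28: the nuclease gene Aen (-0.93, limma adjusted p = 0.00426), Pmaip1, the gene of NOXA (-0.92, adjusted p = 0.0126), and Perp (-0.55, adjusted p = 0.0214). Pmaip1 missed without labelled IL-33 knockout library 1 (adjusted p = 0.0504), and Perp without library 1 (0.0719) or 3 (0.0752) of that group. Bax had 24.5, 36.6 and 29.4 FPKM among wild-type kidneys of this set, against 23.6, 27.9 and 26.9 FPKM in the labelled knockout, and its change differed between the comparisons (-2.24 ± 0.32 (SE), limma adjusted p = 0.000725).

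Among p53 targets of DNA repair, metabolism and stress, 0 of 13 tested rose and 2 fell in the PAD4 knockout (median 0.06), and 1 rose and 4 fell in the labelled IL-33 knockout (median 0.03). The shares called, 15.4% and 38.5%, are near those of all genes (17.7% and 39.1%). Gdf15, a secreted stress cytokine, was at 202, 146 and 121 FPKM among wild-type kidneys of the IL-33 set, against 4.16, 7.01 and 7.37 FPKM in the labelled knockout (-4.45 ± 0.24 (SE), limma adjusted p = 2.64e-05). In the PAD4 set its groups overlapped (50.5, 26.5 and 59.6 FPKM, and 20.8, 28.8 and 8.87 FPKM). It passed there (-1.25, limma adjusted p = 0.0344), but not without PAD4 knockout library 3 (0.199) or wild-type library 1 (0.197) or 3 (0.185). Median-of-ratios scaling (limma adjusted p = 0.0803), no trend (0.0509) and the replicate block (0.0537) also lost that call. Ddit4, a repressor of mTORC1, fell in the labelled IL-33 knockout from 38.5 ± 1.22 to 11.5 ± 0.927 FPKM (SD, n = 3), and so did Ercc5, a repair nuclease gene (-0.55, limma adjusted p = 0.00725). Dram1, an autophagy gene, fell in the PAD4 knockout (-0.64, limma adjusted p = 0.044) and rose in the labelled IL-33 knockout (0.48, limma adjusted p = 0.0331). The fall did not pass without any 1 of 5 of the 6 libraries, with an adjusted p of 0.0512 to 0.279, and without wild-type library 1 it kept the call. TPM scaling (limma adjusted p = 0.0647), no trend (0.084) and the replicate block (0.0911) also lost the fall.

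Of other genes that arrest the cell cycle, 6 of 17 tested rose and 6 fell in the labelled IL-33 knockout (median -0.21), beside 22.2% and 16.8% of all genes. The falls were those of Gadd45a (70.6, 57.3 and 58.2 FPKM among wild-type kidneys, against 13.5, 14.8 and 13.5 FPKM in the labelled knockout), Gadd45b, Gadd45g, Btg1, Btg3 and Sfn, the gene of 14-3-3 sigma. Gadd45a changed by -2.07 ± 0.11 (SE, limma adjusted p = 2.5e-05), Btg1 by -1.38 (adjusted p = 9.11e-05), Btg3 by -1.06 (adjusted p = 0.00125) and Sfn by -2.82 (adjusted p = 0.000143). The rises were those of Cdkn1b, Cdkn1c, Cdkn2c and the retinoblastoma family genes Rb1, Rbl1 and Rbl2. Cdkn1c, the gene of p57, went from 4.89, 7.06 and 5.94 FPKM to 16.1, 18.8 and 22.7 FPKM (1.54 ± 0.16 (SE), limma adjusted p = 0.000382). In the PAD4 knockout, where 8.89% of all genes rose and 8.79% fell, 0 of 17 rose and 4 fell (median -0.52): Rprm (-0.99, limma adjusted p = 0.0186), Sfn (-1.10, adjusted p = 0.0231), Cdkn1c (-0.80, adjusted p = 0.0313) and Cdkn2b. None of the first 3 held without wild-type library 3 (adjusted p = 0.128, 0.109 and 0.116). Rprm and Sfn were also lost without wild-type library 1 (0.0974 and 0.0807) or PAD4 knockout library 3 (0.085 and 0.0906), and Cdkn1c without wild-type library 2 (0.0924) or PAD4 knockout library 1 (0.189). Rprm and Cdkn1c missed under median-of-ratios scaling (limma adjusted p = 0.0574 and 0.0621) and with no trend (0.0539 and 0.0585). Sfn and Cdkn1c missed with the replicate block (0.0787 and 0.0637).

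Of genes that drive the cell cycle, 6 of 18 tested rose and 2 fell in the labelled IL-33 knockout (median 0.34), and 1 of 21 rose and 1 fell in the PAD4 knockout (median -0.38). The shares called were 44.4% and 9.52%, beside 39.1% and 17.7% of all genes. Ccnd1, the gene of cyclin D1, rose in both, from 2.97 ± 0.855 to 16.5 ± 7.25 FPKM (SD, n = 3) in the PAD4 set (2.08 ± 0.31 (SE), limma adjusted p = 0.000235) and from 10.6 ± 5.68 to 53.6 ± 5.52 FPKM (SD, n = 3) in the IL-33 set (2.38 ± 0.36 (SE), limma adjusted p = 0.00185). Mcm6 (1.25, limma adjusted p = 0.00182) and Mcm5 (1.10, adjusted p = 0.0121), subunits of the replicative helicase, rose in the labelled IL-33 knockout. The proliferation marker Mki67 was too low to test in the IL-33 set (0.17 to 0.645 FPKM). Ccnd2 fell in the PAD4 knockout (-0.90, limma adjusted p = 0.00789), a call lost when wild-type library 3 was left out (0.0523).

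Among regulators of p53 and its relatives, 0 of 6 tested passed in the PAD4 knockout (median 0.02; smallest adjusted p that of Chek2, 0.393), beside 17.7% of all genes called, and 0 of the 6 was at an unadjusted p under 0.05. In the labelled IL-33 knockout 3 of 8 rose and 0 fell (median 0.32), beside 39.1% of all genes called: Trp53bp1 (0.49, limma adjusted p = 0.00984), the checkpoint kinase gene Chek2 (0.67, adjusted p = 0.0367) and the damage kinase gene Atm (0.39, adjusted p = 0.039). Trp53bp1 was lost without labelled IL-33 knockout library 3 (adjusted p = 0.0541). Chek2 was lost without library 1 (0.108) or 3 (0.122) of that group or wild-type library 1 (0.07) or 2 (0.0572), and Atm without any library but wild-type library 3 (0.0774 to 0.134). Mdm4, the relative of Mdm2, was at 4.57 to 5.07 FPKM in the wild type of the IL-33 set and 4.42 to 4.70 FPKM in the labelled knockout. Among family relatives of the 10 genes, which share members with the lists above, 1 of 12 rose and 2 fell in the PAD4 knockout (median -0.40) and 3 rose and 5 fell in the labelled IL-33 knockout (median -0.25), beside 17.7% and 39.1% of all genes called. Phlda2 was the rise in the PAD4 knockout (1.30, limma adjusted p = 0.00588, and 0.0598 without wild-type library 1). It fell in the labelled IL-33 knockout (-0.45, adjusted p = 0.0376). Phlda1 fell in the PAD4 knockout (-0.89, adjusted p = 0.0285), but not without wild-type library 1 (0.111) or 3 (0.101) or PAD4 knockout library 1 (0.101) or 3 (0.126). It also missed under median-of-ratios scaling (limma adjusted p = 0.064) and with the replicate block (0.0633).

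**Figure D5:**
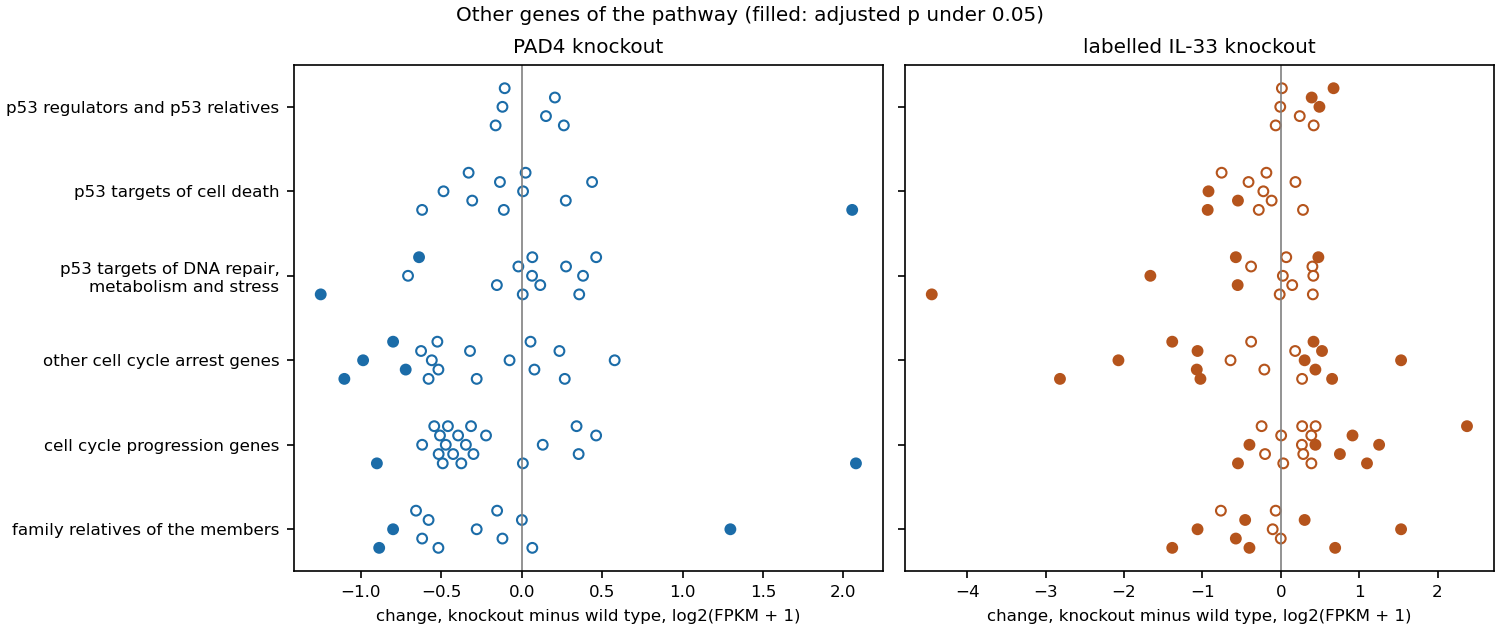
Change of every tested gene of 6 lists of the p53 pathway and the cell cycle, as log2(FPKM + 1) of knockout minus that of wild type, in the PAD4 knockout (left) and the labelled IL-33 knockout (right); the horizontal scales differ. Filled points passed the limma threshold, among them Bax and Ccnd1 at the right of the first panel and Gdf15 at the left of the second.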

How the data were processed

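Poly(A) RNA from 12 mouse kidneys was sequenced with strand-specific libraries, per the labels' protocols. The authors deposited 1 FPKM table per set. Tools listed per the submitters' processing notes are HISAT2, StringTie, cutadapt, FastQC, edgeR and DESeq2, without versions or roles. Genome build and annotation: not given in the sources used here. Gene IDs were paired with symbols through a table of gene names (30212 of 32199 and 29690 of 31719 matched). Genes with a mean of at least 0.5 FPKM over the 6 libraries of a set were tested on log2(FPKM + 1), with a pseudocount of 1, by limma 3.58.1 in R 4.3.3 with a variance trend. P-values were adjusted by Benjamini-Hochberg across every gene tested in the fit, and those under 0.05 were called. Fold changes on this scale understate those of low genes. The difference between the comparisons was tested in a fit of all 12 libraries. FPKM keeps no read counts and the values did not give whole reads back, so the depth is unknown. Replicates are independent biological samples, per the series' design text. The test was checked on simulated data with independent noise in each library and only genes past the filter. That check does not cover the setting without a filter or shifts shared by the genes of a library.

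The 10 genes, the lists and the markers were chosen with earlier results of these data known. Every one of the 10 genes is described. From each list the 3 genes with the smallest p among those called in a set are named (with none called, the 1 with the smallest p), and from likeness the 3 closest genes to Cdkn1a and to Mdm2. Other list genes, and the ratios, were chosen after their values were seen. Promoters came from RefSeq (GRCm38.p6), and overlapping genes from GENCODE. Alternatives were other pseudocounts, filters, scalings, no trend, a replicate block and leaving out each library.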

Additional observations from a re-analysis of the deposited data

Results flagged for a closer look

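The change in the labelled IL-33 knockout differed from that in the PAD4 knockout for 16 genes. The test was the limma contrast over all 12 libraries with Benjamini-Hochberg adjustment. Counted were the 10 p53 pathway genes and the list genes named for the smallest p in a set. Over all 13010 genes tested, 12.4% differed. The list genes were picked for small p-values, so the 16 are not to be read against that share. The values are the IL-33 set's change minus the PAD4 set's, on the log2(FPKM + 1) scale. Among the 10 p53 pathway genes they were Plk3 (-2.70, adjusted p = 0.00329), Btg2 (-1.89, 0.00359) and Cdkn1a (-1.80, 0.0103), which fell in both sets and fell further in the IL-33 set.

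Among other p53 targets the difference was negative for Gdf15 (-3.20, adjusted p = 0.00178), Bax (-2.24, 0.000725), Aen (-1.21, 0.0162) and Ddit4 (-0.96, 0.0172), and positive for Dram1 (1.12, 0.011). Bax passed as higher in the PAD4 knockout alone, and Dram1 moved in opposite directions. The call of Dram1 in the PAD4 set was lost in 10 alternative settings.

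Among arrest genes and relatives it was negative for Phlda2 (-1.75, adjusted p = 0.00273), Sfn (-1.72, 0.0124), Gadd45a (-1.51, 0.00483) and Btg1 (-0.81, 0.0321), and positive for Cdkn1c (2.33, 0.000599). Phlda2 and Cdkn1c moved in opposite directions in the sets. Their calls in the PAD4 set were lost in 3 and 8 alternative settings. Among genes that drive the cycle it was positive for Mcm6 (1.55, 0.00501), Mcm5 (1.32, 0.0285) and Ccnd2 (1.29, 0.0139). The sets were also normalized separately, and set and knockout cannot be told apart in these differences. Calls were lost for Btg1 under TPM scaling (adjusted p = 0.125), under the replicate block (0.189) and without any 1 of 7 libraries (0.0507 to 0.102), for Ddit4 under TPM scaling (0.0702), the block (0.102) and without labelled IL-33 knockout library 3 (0.0618), and for Mcm5 with no filter (0.0787) and without any 1 of 6 libraries (0.0516 to 0.0766). With neither filter nor trend Ccnd2 (0.0525) and Sfn (0.0506) also missed.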

How the results depend on the processing

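Of 508 recomputed changes of the 10 genes, 472 kept their direction and side of the threshold, 15 lost the call, 9 gained one and 12 changed sign. With no filter, limma called 0 genes (6053 at an unadjusted p under 0.05) and 0 of the 10 in the PAD4 set, against 2473 and 4. With neither filter nor trend, chosen after seeing the data, it called 11 genes and 0 of the 10. The cause was not tested. For the difference between the sets, a mean FPKM of at least 2 gave 1011 genes and median-of-ratios scaling 3106, against 1615. Leaving out 1 library gave 1102 to 3543 genes and 2 to 4 of the 10 in the PAD4 set (1102 without wild-type library 1, 1322 without wild-type library 3), and 3678 to 6092 genes in the IL-33 set (3678 without labelled knockout library 1, 3731 without 3). In that set it gave 5 to 9 of the 10 (9 without wild-type library 1).

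Signs changed only for differences and changes that were not called. The difference of Trp53inp1 was 0.094 and 0.014 with pseudocounts of 0.1 and 0.5 and -0.38 to 0.15 with 1 library left out, and that of Rprm was -0.087 with a pseudocount of 0.1. With 1 library left out, the difference of Ccng1 was -0.10 to 0.35, of Ccnd1 -0.16 to 0.64, of Phlda1 -0.26 to 0.45 and of Pmaip1 -0.62 to 0.18, and the PAD4 change of Phlda3 was -0.18 to 0.31.

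With the replicate number as a block, 1984 genes and 4 of the 10 were called in the PAD4 set, 5336 and 7 in the IL-33 set, and 1819 and 3 for the difference. Deviations of same-numbered libraries from their group means correlated at -0.15 to -0.02 in the PAD4 set and -0.01 to 0.13 in the IL-33 set. With 3 libraries per group, these values cannot show whether the numbers pair the libraries. Depth is unknown, and no limit from it can be given.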
